A study of Mus musculus with 18 samples.

Results

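The genes described here encode 9 transcription factors that act in myeloid cells: Spi1, Runx1, Cebpa, Cebpb, Cebpd, Cebpe, Maf, Klf4 and Klf2. They were chosen as a named list of myeloid identity factors, and all 9 were found by symbol among the 22852 gene symbols of the count files and passed the expression filter that left 11305 genes for testing. The samples were BMDMs, which are macrophages grown from the bone marrow of female C57BL/6 mice over 7 days in medium with 20% L929-conditioned medium, a source of macrophage colony-stimulating factor. RNA-Seq counts were available for 18 samples, 3 in each of 6 groups. Unstimulated BMDMs received no LPS, the endotoxin of Gram-negative bacteria. LPS-primed BMDMs were exposed to 100 ng/ml LPS for 24 h, and LPS-tolerant BMDMs were primed in that way before the medium was replaced by fresh medium with 10 ng/ml LPS for 3 h. LPS-stimulated BMDMs met 10 ng/ml LPS only once, for 3 h by the study's treatment scheme. The primed and the tolerant states were each also prepared with 25 µM carboplatin, a platinum drug that cross-links DNA, which by the study's methods was added 1 h before the first LPS dose, whereas the sample labels place it after LPS. The LPS-primed and LPS-stimulated groups differ in both dose and time, and the LPS-tolerant group differs from the LPS-primed group in the second dose, the change of medium and the added hours, so that within each of these contrasts the factors cannot be told apart. The study's methods describe 3 biological replicates, but whether they came from separate mice, and the age of the mice, are not given in the sources used here, so p values measure the spread between these samples.

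PU.1, the product of Spi1, is an ETS-family factor without which macrophages do not form, and it opens the enhancers on which other macrophage regulators act. Runx1 works with its partner Cbfb upstream of PU.1 in blood stem and progenitor cells. The C/EBP proteins are basic leucine zipper factors that bind the same DNA element as dimers: C/EBPα (Cebpa) drives the myeloid progenitor programme and restrains division, C/EBPβ (Cebpb) and C/EBPδ (Cebpd) are induced by inflammatory signals and act on acute-phase and cytokine genes, and C/EBPε (Cebpe) serves late granulocyte maturation. C-Maf (Maf) is a basic leucine zipper factor tied to quiescence and to the resident, IL-10-producing macrophage state, and the zinc finger factors Klf4 and Klf2 favour monocyte identity and temper NF-κB-dependent inflammation. They are known to be expressed in myeloid cells at different strengths. Only their RNA levels were examined here, and neither their protein nor their binding to DNA was measured.

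Gene-mapped read pairs numbered from 6869667 to 14708099 per sample. Over these totals, 8 members were covered by at least 41 read pairs in every sample, while Cebpe had from 1 to 44, so that its values carry a wide counting error. The 16 macrophage markers examined, among them Csf1r, Adgre1 and Cd68, were each detected in every group, and their summed level, in CPM (read pairs per gene scaled to a common library size), was 26366 to 30861 in unstimulated, 25503 to 29947 in LPS-stimulated, 39820 to 41557 in LPS-primed and 38884 to 42719 in LPS-tolerant BMDMs. With carboplatin it was 34985 to 38010 in LPS-primed, below all samples without the drug, and 33924 to 38916 in LPS-tolerant BMDMs, where the ranges overlapped. By single genes, 7 of the 16 were called higher in LPS-primed than in unstimulated BMDMs, and the median log2FC of all 16 was 0.02. The 3 called lower were Cd68 (-0.93), Laptm5 (-0.88) and Cx3cr1 (-3.54). Of all tested genes, 12.1% were called higher and 13.1% lower. Markers of B cells, T and NK cells, dendritic cells, mast cells, erythroid cells and fibroblasts summed to at most 8.07 CPM per list in any sample. Within that limit the fibroblast list went from at most 0.586 CPM in unstimulated to 2.96 to 7.35 CPM in LPS-primed BMDMs, with Dcn called at least 16.9-fold higher, and Kit, of the mast cell list, was called at least 6.95-fold lower, both against a floor of 3 counts per library. Of 15 neutrophil granule genes, Cxcr2, Ly6g and Mpo were at 0 in every sample, and the summed level of the list was 49.0 to 81.6 CPM in unstimulated, 82.7 to 127 CPM in LPS-stimulated, 188 to 455 CPM in LPS-tolerant and 254 to 437 CPM in LPS-primed BMDMs. Mmp9, S100a8, Mmp8 and Csf3r, the 4 tested, were all called higher in LPS-primed than in unstimulated BMDMs. The part of other cells in the differences below was not tested. In bulk RNA, fewer cells expressing a gene and less of its RNA per cell cannot be told apart.

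The members lie on 6 chromosomes of GRCm39. In the GENCODE vM39 annotation Cebpa (chr7:34818718-34821353), Cebpb (chr2:167530835-167532338) and Cebpd (chr16:15705150-15708895) are single-exon genes on the plus strand. Cebpe (chr14:54947817-54949631), Klf4 (chr4:55527139-55532528), Maf (chr8:116409632-116434579) and Runx1 (chr16:92398354-92623037) lie on the minus strand, and Spi1 (chr2:90912562-90946101) and Klf2 (chr8:73072726-73075502) on the plus strand. All but Cebpe and Klf4 overlap a gene on the opposite strand, and the overlap is 908 bases with Peds1 for Cebpb, 1809 bases with Spidr for Cebpd and the whole 2777 bases with Eps15l1 for Klf2. By the study's methods the libraries were stranded, but the strand option of the counting is not given in the sources used here, so for these genes reads of the 2 strands may not have been separated.

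Promoters were examined for 3 members that moved strongly and in opposite directions after LPS, Cebpb upward and Cebpa and Klf4 downward. RefSeq promoter sequences (GRCm38.p6, 250 bases before to 50 bases after the start site) were held for 5 of the 9 members. Capitals mark every match, on either strand, to one of 9 short motifs named after the sequences.
Cebpb, chr2:167688665-167688964, plus strand: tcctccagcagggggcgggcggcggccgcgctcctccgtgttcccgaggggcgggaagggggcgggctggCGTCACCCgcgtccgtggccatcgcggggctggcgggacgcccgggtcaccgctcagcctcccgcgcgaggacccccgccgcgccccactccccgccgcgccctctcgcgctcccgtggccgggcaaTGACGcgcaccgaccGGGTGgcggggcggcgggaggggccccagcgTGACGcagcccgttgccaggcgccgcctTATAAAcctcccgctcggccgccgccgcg
Cebpa, chr7:35119043-35119342, plus strand: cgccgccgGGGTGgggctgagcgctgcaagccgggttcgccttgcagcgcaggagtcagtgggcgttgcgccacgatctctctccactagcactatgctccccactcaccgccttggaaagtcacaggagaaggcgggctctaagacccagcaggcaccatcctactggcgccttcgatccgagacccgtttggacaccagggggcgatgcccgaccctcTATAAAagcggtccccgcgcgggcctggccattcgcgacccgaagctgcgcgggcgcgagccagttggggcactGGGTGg
Klf4, chr4:55532426-55532725, minus strand: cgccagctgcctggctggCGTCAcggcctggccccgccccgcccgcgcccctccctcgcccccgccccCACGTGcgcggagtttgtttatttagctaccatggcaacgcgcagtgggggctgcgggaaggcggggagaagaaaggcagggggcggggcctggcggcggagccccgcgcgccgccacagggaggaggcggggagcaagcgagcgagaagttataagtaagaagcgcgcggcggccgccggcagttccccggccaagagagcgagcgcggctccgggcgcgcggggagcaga
The Cebpb window, with 80.7% G and C against a median of 52.7% over 32851 promoters, held 3 matches to TGACG, a half-site of the cAMP response element, beginning 180, 53 and 7 bases before the start site. This motif was present in 20.8% of all promoters, and the Klf4 window held 1 match and the Cebpa window none. A TATAAA match stood 30 bases before the start in Cebpa and 22 bases after it in Cebpb, in a set where 13.6% of promoters held that motif. The KLF motif CACCC, found in 57.5% of promoters, occurred at 2 positions in Cebpb, the first of them overlapping a TGACG match, and at 2 in Cebpa. Among the 3 windows, an E-box (CACGTG, in 7.2% of promoters) was found in that of Klf4. The other motifs searched had no match in these 3 windows. They were a C/EBP motif (TTGCNNAA), present in 10.8% of promoters, an NF-κB motif (GGNNTTTCC), present in 5.8%, and an AP-1 motif (TGANTCA), present in 7.8%. The PU.1 motif (GAGGAA) was present in 28.3% of promoters and CCAAT in 37.4%.

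A single dose of LPS moved most of the lineage factors within 3 h, in a comparison that called 5789 of all 11305 tested genes. Spi1, Runx1, Cebpb and Cebpd were higher and Maf, Cebpa and Klf4 lower than in unstimulated BMDMs, which makes 7 of 9 members called at an adjusted p under 0.05 by edgeR's quasi-likelihood test, 4 upward and 3 downward. Among all tested genes 24.3% were called higher and 26.9% lower. The log2FC of the members ranged from -2.49 for Maf to 3.31 for Cebpb, with a median of -0.59 against -0.09 over all tested genes. After 24 h of priming, 2 members were higher (Cebpb and Cebpd) and 1 lower (Cebpa), while 12.1% of all genes were called higher and 13.1% lower, and the median of the members was -0.34 against -0.02. With the replicate number as a block, the count in primed BMDMs was 5, since Maf and Klf4 were also called lower, and the share of all genes called lower was 19.8%. These comparisons share the 3 unstimulated samples.

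Tolerant BMDMs were next set against BMDMs that met the same LPS dose for the first time. In the tolerant cells Maf and Klf4 were higher and Spi1, Cebpb and Cebpd lower, 5 of 9 members, against 16.2% of all genes called higher and 18.3% lower. The median log2FC was 0.40 for the members and 0.00 for all genes tested. The replicate block added Cebpe, in a fit that called 22.9% of all genes higher. Between LPS-tolerant and LPS-primed BMDMs no member was called by edgeR, DESeq2 or limma-voom, in a comparison where 3.6% of all genes were called higher and 2.71% lower, and 1 member (Klf4) had an unadjusted p under 0.05. With the block, Klf4 was called higher, as were 9.67% of all genes.

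**Figure D1:**
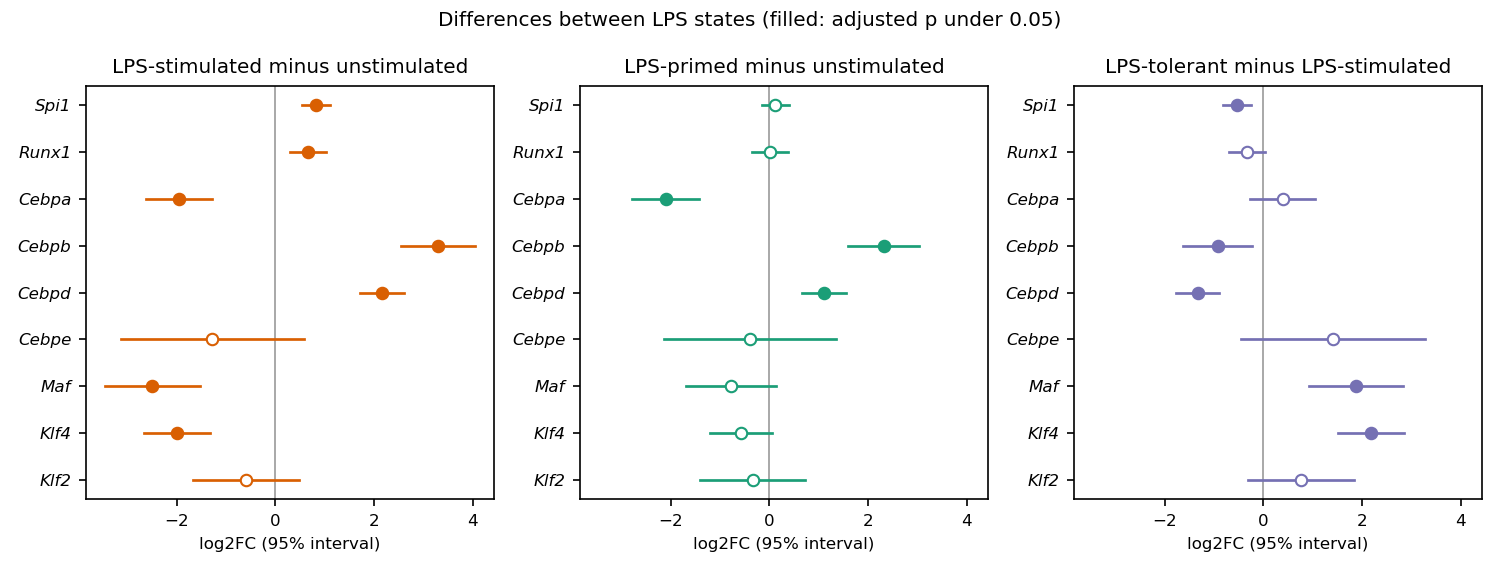
Differences in log2FC (x axis) of the 9 genes for 3 comparisons of LPS states, with 95% intervals from edgeR; filled points have an adjusted p under 0.05. Cebpb reached 3.31 in LPS-stimulated BMDMs, Cebpa stood near -2 in both comparisons with unstimulated BMDMs, and Klf4 and Maf lay to the right of 0 in LPS-tolerant against LPS-stimulated BMDMs.

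Per kilobase of exon, with all annotated exons of a gene merged, the members ranked from Spi1 downward in unstimulated BMDMs. Spi1 stood at 144 ± 14.4 RPKM (SD, n = 3 here and below), Cebpb at 102 ± 13.1, Cebpa at 33.8 ± 13.3, Klf2 at 18.5 ± 0.38 and Maf at 14.1 ± 6.73. Klf4 (7.01 ± 1.75) and Cebpd (6.502 ± 0.47) were next, followed by Runx1 (2.62 ± 0.53) and Cebpe (1.28 ± 0.93). The order changed after LPS: Cebpb stood at 1008 ± 216 RPKM and Spi1 at 256 ± 29.7 in LPS-stimulated BMDMs, Cebpd was the next at 29.2 ± 4.85, and Maf and Klf4 fell to 2.49 ± 1.27 and 1.80 ± 0.88. In LPS-primed BMDMs Cebpb remained above Spi1, at 507 ± 110 against 157 ± 16.0 RPKM.

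**Figure D2:**
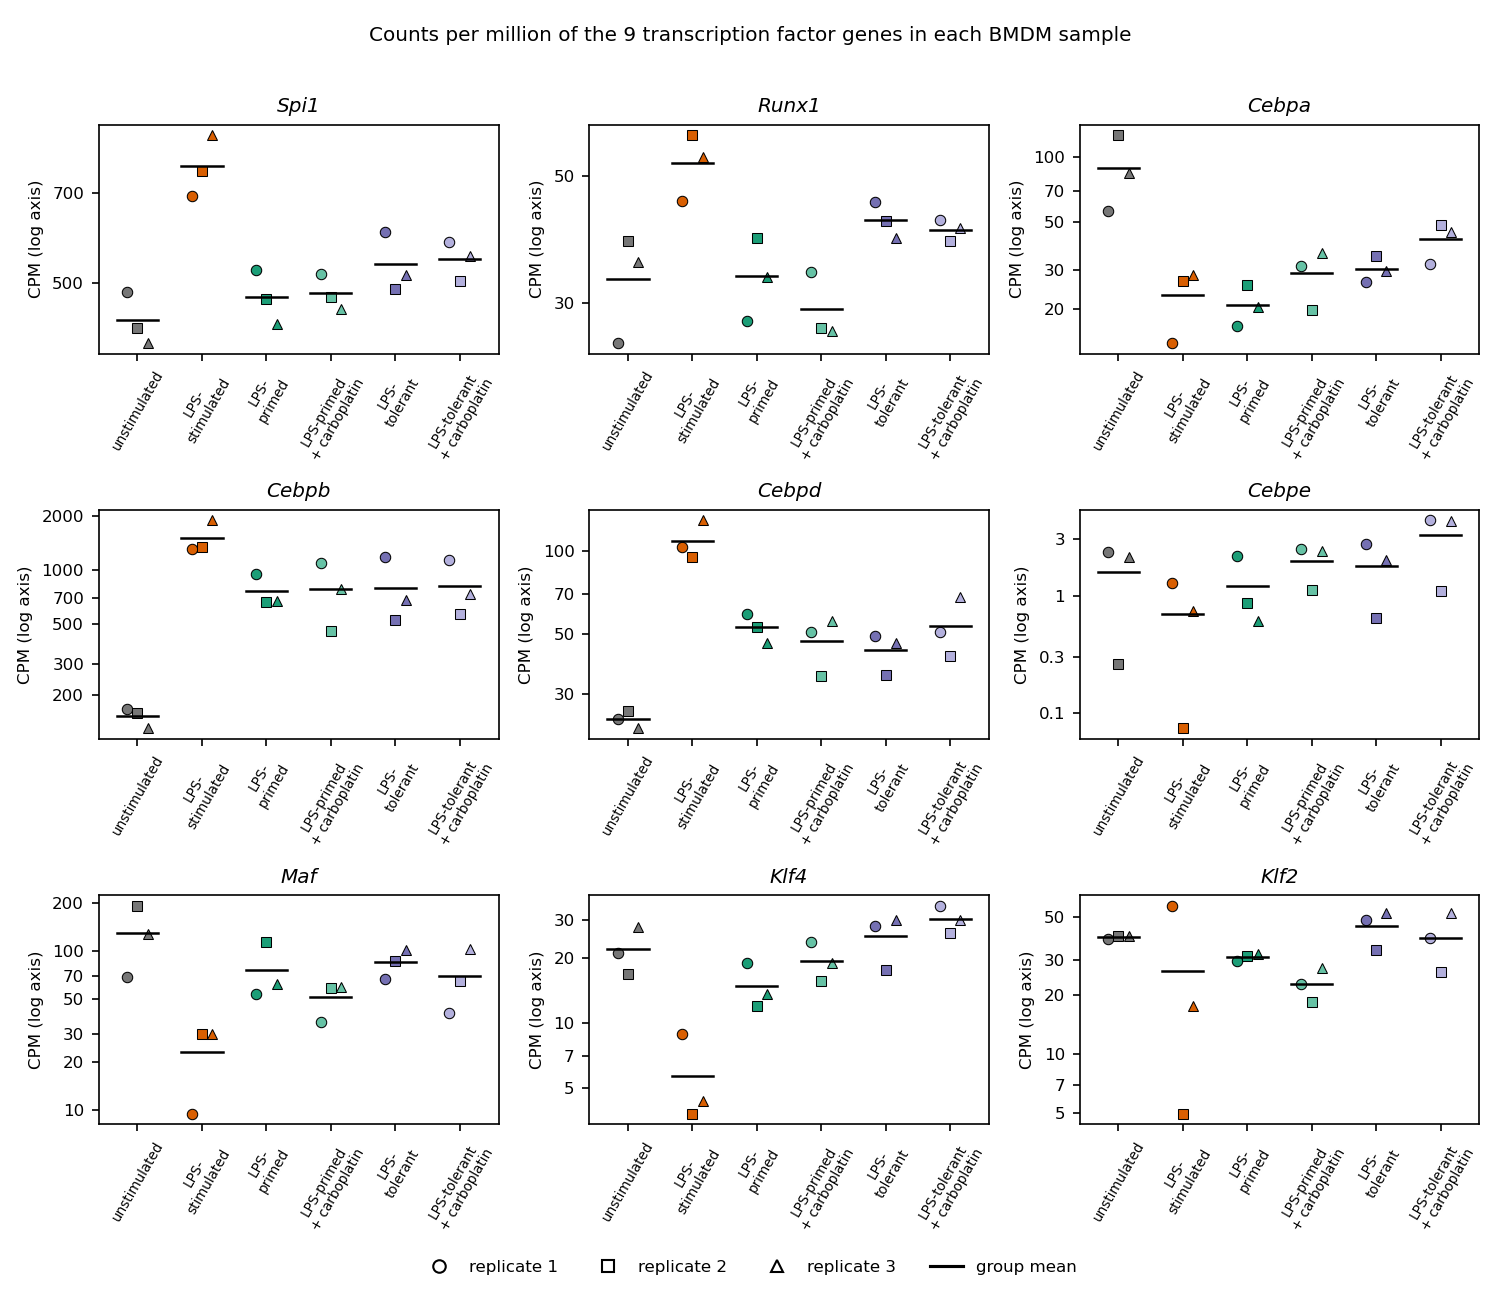
CPM of each gene (log y axes with their own ranges) in the 18 samples, by group (x axis); symbols mark the replicate number and bars the group means. Cebpb and Cebpd are lowest in unstimulated and highest in LPS-stimulated BMDMs, while Maf and Klf4 have their lowest means in LPS-stimulated BMDMs.

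Spi1 was abundant in every group and highest after the single dose. Its level in replicates 1, 2 and 3 was 483, 422 and 399 CPM in unstimulated BMDMs, 690, 760 and 868 CPM in LPS-stimulated, 524, 471 and 428 CPM in LPS-primed, and 603, 488 and 515 CPM in LPS-tolerant BMDMs. The 3 LPS-stimulated samples thus lay above all 15 others, and the ranges of neighbouring groups in the remaining order overlapped. The log2FC was 0.83 in LPS-stimulated against unstimulated BMDMs (SE 0.13, adjusted p = 6.89e-05), a 1.78-fold difference, and -0.53 in LPS-tolerant against LPS-stimulated BMDMs (SE 0.13, adjusted p = 0.00509), which fell short in a fit of only those groups (-0.51, adjusted p = 0.0514). Priming left Spi1 at a log2FC of 0.13 (95% interval -0.15 to 0.41), an interval that ends at a 1.33-fold rise.

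Runx1 was also highest after the single dose. It stood at 25.6, 38.5 and 35.3 CPM in unstimulated, 45.3, 58.9 and 54.0 CPM in LPS-stimulated, 28.0, 38.9 and 33.3 CPM in LPS-primed and 45.0, 41.7 and 38.9 CPM in LPS-tolerant BMDMs. LPS-stimulated samples did not overlap with any other group. The log2FC over unstimulated BMDMs was 0.67 (SE 0.17, adjusted p = 0.00405), and with libraries scaled by their size alone it was 0.33 and no longer called (adjusted p = 0.113). In that setting the median log2FC of all genes was -0.43, against -0.09 in the main fit. In LPS-primed BMDMs the log2FC was 0.01 (95% interval -0.36 to 0.38).

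Among the C/EBP genes, Cebpb showed the largest rise of the list. Its level was 169, 159 and 131 CPM in unstimulated BMDMs, 1317, 1340 and 1892 CPM in LPS-stimulated, 954, 662 and 673 CPM in LPS-primed, and 1186, 528 and 681 CPM in LPS-tolerant BMDMs. The unstimulated samples lay below all others and the LPS-stimulated samples above all others, while the 4 groups that had been primed overlapped. The log2FC was 3.31 after the single dose (SE 0.36, adjusted p = 9.42e-07), or 9.90-fold, and 2.32 after priming (SE 0.34, adjusted p = 7.14e-05), or 4.98-fold. The difference between LPS-tolerant and LPS-stimulated BMDMs, -0.93 (SE 0.33, adjusted p = 0.0365), had the same sign in 3 of 3 same-numbered pairs. The call was lost without LPS-tolerant replicate 2 (-0.70, adjusted p = 0.146), LPS-tolerant replicate 3 (-0.82, adjusted p = 0.1252), LPS-stimulated replicate 2 (-1.01, adjusted p = 0.0502) or LPS-stimulated replicate 3 (-0.73, adjusted p = 0.142).

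Cebpd was likewise lowest in unstimulated and highest in LPS-stimulated BMDMs. It was 24.4, 26.1 and 22.6 CPM in unstimulated, 103, 94.9 and 130 CPM in LPS-stimulated, 59.2, 52.8 and 46.3 CPM in LPS-primed and 49.1, 35.3 and 46.3 CPM in LPS-tolerant BMDMs. Unstimulated samples were below and LPS-stimulated samples above all others. The log2FC was 2.17 after the single dose (SE 0.21, adjusted p = 3.74e-07), 1.11 after priming (SE 0.21, adjusted p = 7.30e-04) and -1.33 in LPS-tolerant against LPS-stimulated BMDMs (SE 0.21, adjusted p = 1.01e-04).

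Cebpa moved in the opposite direction to Cebpb and Cebpd. It stood at 56.7, 126 and 84.4 CPM in unstimulated BMDMs, above the range of every LPS-treated group. The 3 LPS-stimulated samples had 13.8, 26.7 and 28.5 CPM, the LPS-primed samples 16.6, 25.6 and 20.3 CPM, and the LPS-tolerant samples 26.4, 35.1 and 29.8 CPM. The log2FC was -1.95 after the single dose (SE 0.32, adjusted p = 7.46e-05) and -2.10 after priming (SE 0.32, adjusted p = 9.77e-05). LPS-tolerant and LPS-stimulated BMDMs differed by 0.40 (SE 0.31, adjusted p = 0.350), with overlapping samples. LPS-tolerant samples all lay above LPS-primed ones, by a log2FC of 0.55 (SE 0.31) that did not pass (adjusted p = 0.341).

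Cebpe, the granulocyte factor of the family, was near the limit of detection. Its counts were 23, 3 and 22 read pairs in unstimulated, 10, 1 and 7 in LPS-stimulated, 19, 7 and 6 in LPS-primed and 20, 7 and 18 in LPS-tolerant BMDMs. All groups overlapped, and replicate 1 had the highest CPM in each of the 6 groups. The log2FC was -1.27 after the single dose (95% interval -3.12 to 0.58) and 1.42 in LPS-tolerant against LPS-stimulated BMDMs (adjusted p = 0.234). These became -2.04 and 2.19 without LPS-stimulated replicate 1, and -0.65 and 0.80 without LPS-stimulated replicate 2. The blocked value of the second difference, 1.47, passed (SE 0.55, adjusted p = 0.0356).

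The counts per length put the family in one scale. Cebpb made up 79.0, 65.8 and 68.7% of the summed RPKM of the 4 C/EBP genes in unstimulated BMDMs and 96.2 to 96.5% in LPS-stimulated BMDMs. The share of Cebpa went from 15.1, 29.8 and 25.2% to 0.58 to 1.09%, and it was 0.96 to 2.09% in LPS-primed and 1.23 to 3.56% in LPS-tolerant BMDMs. The unstimulated samples were thus set apart from all 15 LPS-treated samples in both shares. The ratio of Cebpb to Cebpa RPKM was 5.22, 2.21 and 2.72 in unstimulated, 167, 88.0 and 116 in LPS-stimulated, 101, 45.4 and 58.3 in LPS-primed and 78.8, 26.4 and 40.1 in LPS-tolerant BMDMs. Replicate 1 had the highest ratio in all of these groups, with Cebpa lowest in replicate 1 in 5 of the 6 groups and Cebpb highest in replicate 1 in 5 of the 6. The summed RPKM of the family went from 143 ± 17.1 in unstimulated to 1047 ± 223 in LPS-stimulated and 530 ± 111 in LPS-primed BMDMs.

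**Figure D3:**
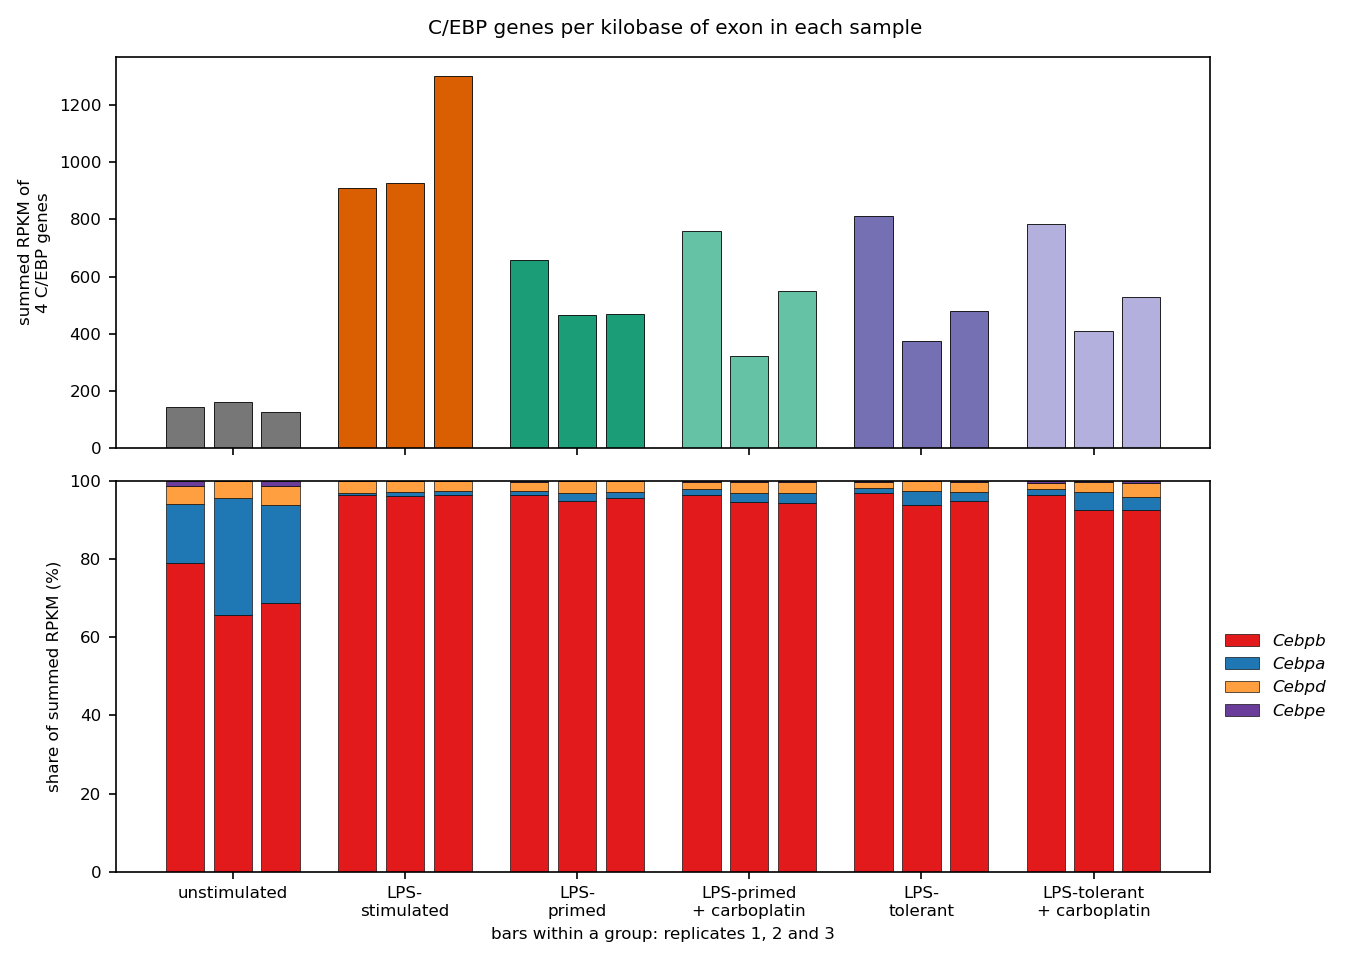
Summed RPKM of Cebpa, Cebpb, Cebpd and Cebpe in each sample (upper bars) and the share of each gene in that sum (lower bars, in percent), with replicates 1, 2 and 3 side by side in each group. The Cebpa share is 15.1 to 29.8% in unstimulated BMDMs and at most 4.49% in every LPS-treated sample.

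Maf fell steeply after the single dose and stood higher in tolerant cells. Its level was 69.2, 194 and 129 CPM in unstimulated, 9.49, 30.0 and 30.0 CPM in LPS-stimulated, 53.7, 114 and 62.1 CPM in LPS-primed and 66.9, 87.1 and 102 CPM in LPS-tolerant BMDMs. LPS-stimulated samples lay below all others, while the remaining groups overlapped with their neighbours, and replicate 1 was the lowest in each of the 6 groups. The log2FC was -2.49 after the single dose (SE 0.46, adjusted p = 2.57e-04), or 0.18-fold. It was 1.88 in LPS-tolerant against LPS-stimulated BMDMs (SE 0.45, adjusted p = 0.00376). In LPS-primed BMDMs the log2FC of -0.77 (SE 0.43) did not pass without the block (adjusted p = 0.221), with a negative sign in all 3 same-numbered pairs, and the blocked value of -0.72 did (SE 0.24, adjusted p = 0.0228).

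Klf4 was lowest after the single dose. It was 21.3, 17.0 and 27.9 CPM in unstimulated, 8.85, 3.79 and 4.34 CPM in LPS-stimulated, 19.0, 11.996 and 13.6 CPM in LPS-primed and 28.3, 17.7 and 30.1 CPM in LPS-tolerant BMDMs. LPS-stimulated samples were below all others, and replicate 2 was the lowest in all 6 groups. The log2FC was -1.99 after the single dose (SE 0.32, adjusted p = 6.48e-05) and 2.19 in LPS-tolerant against LPS-stimulated BMDMs (SE 0.32, adjusted p = 5.20e-05). Against LPS-primed BMDMs, LPS-tolerant BMDMs had a log2FC of 0.77 (SE 0.30, adjusted p = 0.146), higher in 3 of 3 pairs, and the same value passed with the block (SE 0.20, adjusted p = 0.0118). LPS-primed BMDMs had a log2FC of -0.57 against unstimulated ones (SE 0.30, adjusted p = 0.186), which passed under the block (-0.58, adjusted p = 0.0245) and with scaling by library size alone (-0.81, adjusted p = 0.0485).

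Klf2 lay in a narrow range in unstimulated and LPS-primed BMDMs and spread widely in LPS-stimulated ones. Its level was 38.5, 39.7 and 40.0 CPM in unstimulated and 29.8, 31.5 and 32.2 CPM in LPS-primed BMDMs, and 48.2, 33.7 and 52.1 CPM in LPS-tolerant BMDMs. The LPS-stimulated samples had 57.0, 4.98 and 17.6 CPM. Replicate 1 of this group was thus above all unstimulated samples, and replicates 2 and 3 were below them. The log2FC after the single dose was -0.59 (95% interval -1.66 to 0.48, adjusted p = 0.349). Without LPS-stimulated replicate 1 it was -1.83 (adjusted p = 0.00125), and LPS-tolerant against LPS-stimulated BMDMs then gave 2.003 (adjusted p = 0.00113) in place of 0.77 (adjusted p = 0.266). Limma-voom, which weights single values by their precision, called Klf2 with all samples, at -1.38 (adjusted p = 0.0303) and 1.52 (adjusted p = 0.0277). LPS-primed samples all lay below unstimulated ones, with a log2FC of -0.34 (SE 0.51, adjusted p = 0.685).

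The response to 10 ng/ml LPS was then compared between unprimed and primed BMDMs, as a contrast of 4 groups: LPS-tolerant minus LPS-primed, less LPS-stimulated minus unstimulated. LPS-tolerant minus LPS-primed also holds the change of medium and the added hours, which cannot be told apart from the second dose. Starting levels differed too, since priming had moved Cebpb by 2.32, Cebpd by 1.11 and Cebpa by -2.10 on the log2 scale. The 4-group difference was called for 6 of 9 members, 3 positive and 3 negative, and for 10.5% of all genes in the positive and 13.3% in the negative direction. It was -3.24 for Cebpb (SE 0.47, adjusted p = 7.29e-05), whose log2FC was 3.31 in unprimed and 0.06 in primed BMDMs. For Cebpd it was -2.44 (SE 0.30, adjusted p = 1.16e-05), with 2.17 in unprimed and -0.28 in primed BMDMs. The 3 positive differences belonged to genes that fell after the single dose and had positive values after the second. They were 2.75 for Klf4 (SE 0.44, adjusted p = 1.70e-04), 2.65 for Maf (SE 0.63, adjusted p = 0.00505) and 2.50 for Cebpa (SE 0.44, adjusted p = 4.89e-04), whose own values after the second dose, 0.77, 0.16 and 0.55, were not called without the block, under which that of Klf4 passed (adjusted p = 0.0118). Spi1 differed by -0.66 (SE 0.19, adjusted p = 0.0173), and the call was lost without LPS-primed replicate 1 (-0.57, adjusted p = 0.0552) or LPS-stimulated replicate 3 (-0.56, adjusted p = 0.0522), and with scaling by library size alone (-0.42, adjusted p = 0.0811). For Klf2 the difference was 1.11 (adjusted p = 0.3003), and 2.34 without LPS-stimulated replicate 1 (adjusted p = 0.00292). Runx1 (-0.34) and Cebpe (1.81) did not pass either.

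**Figure D4:**
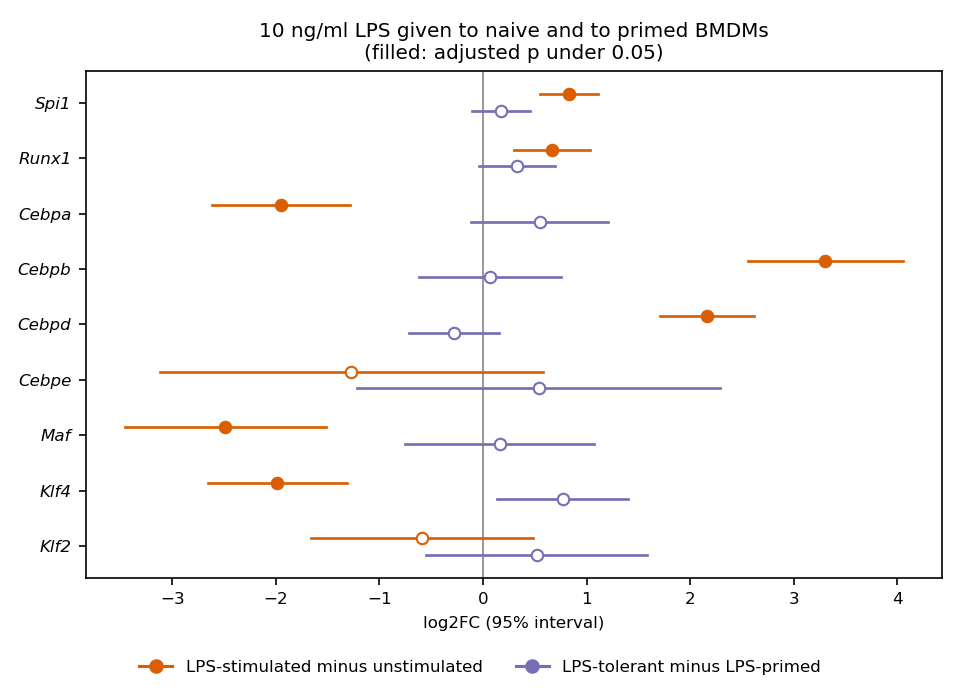
log2FC (x axis, 95% intervals) of the 9 genes upon 10 ng/ml LPS, in unprimed BMDMs (LPS-stimulated minus unstimulated, orange) and primed BMDMs (LPS-tolerant minus LPS-primed, violet); filled points have an adjusted p under 0.05. Cebpb and Cebpd lie at 3.31 and 2.17 in unprimed and at 0.06 and -0.28 in primed BMDMs. The comparison in primed BMDMs also holds the change of medium and the added hours.

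Carboplatin was examined in the primed and in the tolerant state. No member was called in either comparison by edgeR, DESeq2 or limma-voom, and none had an unadjusted p under 0.05 in the edgeR fit. Of all tested genes, 0.372% were called in the primed and 0.425% in the tolerant state, in both directions together. With the replicate block in edgeR, 0 members and 200 genes were called in each state. In the primed state the blocked 95% interval excluded 0 for Maf (-1.09 to -0.07, adjusted p = 0.292). It also did for Cebpa (0.01 to 1.04, adjusted p = 0.356), while all other blocked intervals of the members included 0. The values that follow are from the fit without the block. The Spi1 samples with carboplatin had 516, 473 and 453 CPM in the primed and 581, 502 and 552 CPM in the tolerant state, with log2FC of 0.02 (95% interval -0.26 to 0.30) and 0.03 (-0.25 to 0.31). Cebpb was less tightly bounded: 1099, 458 and 780 CPM and 1138, 571 and 735 CPM with carboplatin, and log2FC of 0.03 in both states with 95% intervals of -0.66 to 0.71 in each. Cebpa, at 31.5, 19.7 and 36.2 CPM in the primed and 32.1, 48.6 and 45.2 CPM in the tolerant state, had log2FC of 0.48 (-0.18 to 1.15) and 0.46 (-0.19 to 1.12). Maf had 35.5, 58.7 and 59.2 CPM in the primed state with carboplatin, below the same-numbered sample without it in 3 of 3 pairs, at a log2FC of -0.58 (-1.50 to 0.34). In the tolerant state its samples, 41.0, 65.1 and 104 CPM, gave -0.29 (-1.20 to 0.63).

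The other members did not pass either. Klf4 was higher with carboplatin in 3 of 3 pairs of each state, at 23.8, 15.8 and 18.9 CPM in the primed and 35.2, 26.3 and 30.1 CPM in the tolerant state, with log2FC of 0.39 (-0.25 to 1.02) and 0.27 (-0.35 to 0.89). Klf2 in LPS-primed BMDMs was 22.6, 18.4 and 27.4 CPM with carboplatin, below all 3 samples without it, and its log2FC of -0.45 (-1.53 to 0.63) did not pass (adjusted p = 0.980). Runx1 differed by -0.19 and -0.05, Cebpd by -0.16 and 0.29, and Cebpe by 0.70 and 0.90 in the primed and tolerant states. The 95% intervals of Cebpe extend to 2.44 and 2.55, which are 5.43-fold and 5.84-fold differences. The test of the difference between the carboplatin effects of the 2 states called no member by edgeR, DESeq2 or limma-voom. None had an unadjusted p under 0.05 in edgeR, which called 0% of all genes and gave 131 genes an unadjusted p under 0.05.

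**Figure D5:**
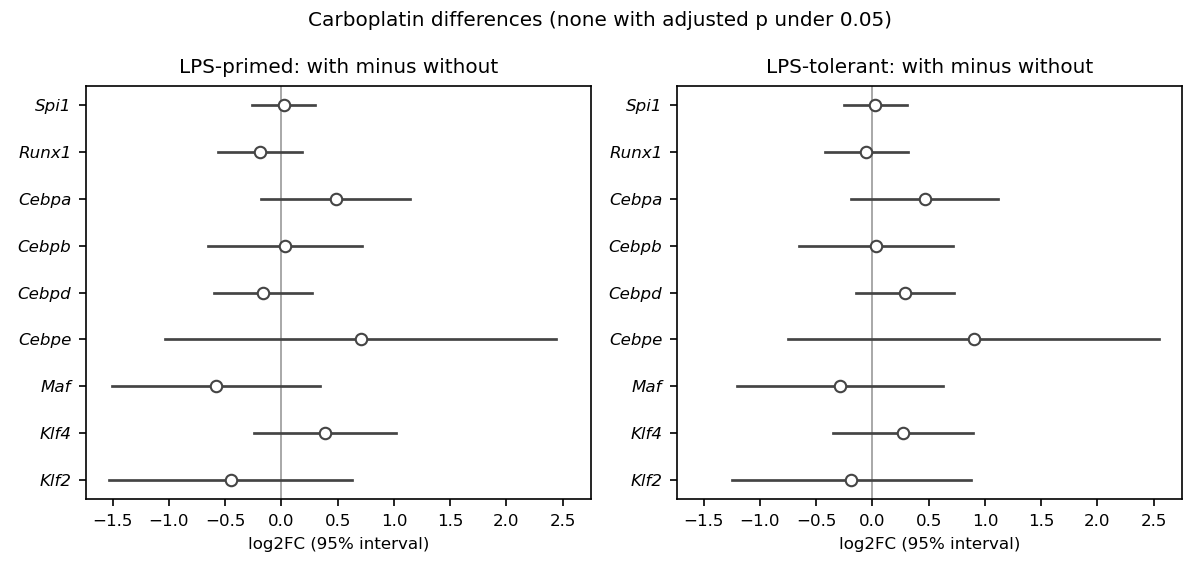
log2FC (x axis, 95% intervals) of the 9 genes with minus without carboplatin in LPS-primed (left) and LPS-tolerant (right) BMDMs. All of these intervals, from the fit without the replicate block, include 0, and they are narrowest for Spi1 and widest for Cebpe.

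The relatives of these factors were looked at through a list of 26 other ETS, MAF, C/EBP, RUNX and KLF family genes, of which 25 were tested. Its counts, and those of the lists that follow, stand beside the shares of all genes called higher and lower: 24.3 and 26.9% after the single dose, 12.1 and 13.1% after priming, 16.2 and 18.3% in LPS-tolerant against LPS-stimulated BMDMs, 3.6 and 2.71% in LPS-tolerant against LPS-primed BMDMs, and 10.5 and 13.3% in the contrast of the 2 responses. The single dose raised 11 and lowered 6, and the list had a median of 0.56. The largest changes were those of Maff (6.31), a small MAF protein that lacks an activation domain, Klf7 (4.06), Ets2 (3.60) and Etv6 (2.71). Fli1, an ETS factor of blood and endothelium, fell by 2.58 on the log2 scale. After priming 7 were higher and none lower at a median of 0.05, led by Spic (4.16), the ETS factor of iron-recycling macrophages, and Ets2 (3.97). LPS-tolerant against LPS-stimulated BMDMs had 6 higher and 4 lower (median 0.18), among them Fli1 (2.23), Klf11 (2.16) and Runx3 (2.07), and LPS-tolerant against LPS-primed BMDMs had 1 higher, Maff (1.31), at a median of 0.11. In the contrast of the 2 responses 3 were positive and 6 negative (median -0.19), Maff at -5.00 and Klf7 at -3.97. Neither carboplatin comparison called any of them.

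Of 24 further myeloid lineage factors outside these families, 17 were tested. The single dose raised 6 and lowered 7 (median -0.14), with Tfec at 3.28, Bhlhe41 at -3.11, Lmo2 at -2.66 and Bhlhe40 at 2.56, and Irf8, the monocyte and dendritic cell factor, at -2.35. Priming raised 2 and lowered 4 (median -0.20), with Pparg, the nuclear receptor of alveolar and lipid-handling macrophages, at -5.76, Lmo2 at -1.69 and Mef2c at -1.62. In LPS-tolerant against LPS-stimulated BMDMs 7 were higher and 4 lower (median 0.39), among them Tfec (-3.90), Bhlhe41 (2.82), Rxra (2.71) and Irf8 (2.32). Against LPS-primed BMDMs 3 were higher and 1 lower (median 0.21), with Id2 at 2.20. The contrast of the 2 responses called 7 positive and 2 negative (median 0.21), and carboplatin none.

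Genes known to take input from C/EBP factors were counted beside them. All 12 of a list of inflammatory and acute-phase genes were tested, and 11 were higher after the single dose and 9 after priming, with Il10 lower after priming (-1.69). Il6 had no read in any unstimulated sample, and was at least 292-fold higher after the single dose and at least 26.1-fold higher after priming, against a floor of 3 counts per library. Ptgs2, the inducible prostaglandin synthase, had log2FC of 10.74 and 6.03, Il1b of 10.18 and 8.24, and Arg1, Nos2 and Saa3 of 9.29, 9.26 and 8.83 after priming. With genes at the floor set to their bound, the list had medians of 6.46 and 6.73. In LPS-tolerant against LPS-stimulated BMDMs 4 were higher, led by Arg1 (8.75) and Saa3 (5.17), and 4 lower, at a median of -1.67. Among the latter were Il10 (-7.13) and Il12b, which had no read in the LPS-tolerant samples and was at least 5.83-fold lower. The contrast of the 2 responses was negative for 9 and positive for none, while neither LPS-tolerant against LPS-primed BMDMs (median 0.34) nor carboplatin called any. With carboplatin the list had medians of 0.51 in the primed and -0.06 in the tolerant state. Il6 had log2FC of 1.46 (SE 1.11) in the primed and 0.05 (SE 1.07) in the tolerant state, values with a large error. By RT-qPCR, the study reports raised il-6 mRNA with carboplatin in both states.

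A list of 11 resident-type macrophage genes linked to MAF factors was also counted, and 10 were tested. The single dose lowered 2, Mertk (-3.18), a receptor for apoptotic cells, and Cd163 (-2.34), the haemoglobin scavenger receptor, and raised none (median -0.24). Priming raised F13a1 (3.97) and Cd163 (1.42) and lowered Selenop (-2.45) and Folr2 (-1.56), at a median of -0.62. In LPS-tolerant against LPS-stimulated BMDMs Cd163 (3.64) and F13a1 (3.26) were higher and Selenop (-2.42) and Folr2 (-1.66) lower (median -0.55). Mertk was lower in LPS-tolerant than in LPS-primed BMDMs (-1.65, median of the list -0.22), and Cd163 was the only gene of this list in the contrast of the 2 responses (2.22, median 0.08). None was called with carboplatin at an adjusted p under 0.05 in edgeR. F13a1 had log2FC of -1.77 in the primed (SE 0.67, adjusted p = 0.495) and -2.09 in the tolerant state (SE 0.67, adjusted p = 0.306). The study, at a limit of 0.25 on the adjusted p, lists F13a1 as lower with carboplatin in tolerant BMDMs.

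The genes whose log2 CPM profile over the 18 samples was most like that of a member were listed as a description, since the samples share their groups and libraries. Spi1 was closest to Psd4 (Pearson r = 0.98), Pcbp1 (0.96) and Slc12a4 (0.96), and Runx1 to Lpcat1 (0.93), Spsb1 (0.88) and Plec (0.87). Cebpb was closest to Zc3h12a, which encodes an RNase that degrades inflammatory mRNAs, Mrpl52 and Traf1 (0.97 each), and Cebpd to Slc39a1, Lrp10 and Pim3 (0.95 each). Maf was closest to Txnip (0.93), a redox and glucose-uptake regulator, Flvcr1 (0.93) and Cpt1a (0.92), and Klf4 to Gcnt1 (0.96), Abhd5 (0.95) and Cmas (0.95). The other 3 members were Cebpa, with Clip1 (0.87), Mex3b (0.86) and Ago4 (0.85), Klf2, with Ercc1 (0.89), Coro1a (0.85) and Usf2 (0.80), and Cebpe, with Comtd1 (0.84), Snx1 (0.84) and Lpcat4 (0.83).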

How the data were processed

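RNA-Seq of 18 BMDM samples was analysed from the counts of read pairs per gene that the authors deposited as raw counts, made by HISAT2 alignment to GRCm39 and HTSeq. Program versions, annotation and strand option are not given in the sources used here. Rows that name no gene, 41.5 to 46.9% of each file's total, were left out. Groups follow the sample labels. All 18 samples entered 1 fit of edgeR 4.0.16 (R 4.3.3) with a mean per group, TMM scaling and the filterByExpr defaults (minimum count 10, minimum total 15), and contrasts were tested by the quasi-likelihood F test with Benjamini-Hochberg adjustment over 11305 genes. A gene was called at an adjusted p under 0.05. The SE is the absolute log2FC over the square root of F. CPM uses TMM-scaled libraries, and RPKM divides it by the merged exon length of all GENCODE vM39 transcripts of the gene. The counting may have used another annotation, so ranks between genes and C/EBP shares depend on these lengths. Intervals are at 95%. Counted read pairs ranged from 6869667 to 14708099 per sample, which left Cebpe with the least precision.

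The members and gene lists were chosen with earlier results of these data known. Named genes are all 9 members, the called genes with the largest absolute log2FC of each list, and the 3 most correlated genes per member; Irf8, Fli1, Ptgs2, Il1b, Il10, Cd163 and the marker genes were also named where they fell outside this rule, after their values were seen. The values of 1 listed gene are not reported here. No pair of libraries in a group agreed within sampling noise (chi-square per degree of freedom of at least 18.0). Replicate numbers come from the labels. After removal of group means, same-numbered samples correlated at 0.18 to 0.57 in the 18 pairs of the 6 comparisons between 2 groups, each over 0.1. Over all 15 pairs of groups, 44 of 45 such correlations were over 0.1, and the lowest was 0.063. In LPS-stimulated against unstimulated BMDMs, replicate 3 correlated best with a sample numbered 2. Blocked values, from the same fit with a term for that number, stand beside results whose call they change. Alternatives were RLE factors, library size alone, no filter, at least 10 counts in every sample, DESeq2 1.42.0, limma-voom (limma 3.58.1), only the groups compared, the block, a prior count of 2, the study's limits (absolute log2FC over 2) and leaving out each sample in turn. The edgeR steps were tested on simulated data.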

Additional observations from a re-analysis of the deposited data

Results flagged for a closer look

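The response to 10 ng/ml LPS differed between primed and unprimed BMDMs for 6 of the 9 factors, by the test of the difference itself (LPS-tolerant minus LPS-primed, less LPS-stimulated minus unstimulated, in edgeR's quasi-likelihood fit). This test called 10.5% of all tested genes in the positive and 13.3% in the negative direction. LPS-tolerant minus LPS-primed also holds the change of medium and the added hours, so the test is not of the dose alone. Priming had already moved Cebpb, Cebpd and Cebpa from their unstimulated levels. The log2 differences were -3.24 for Cebpb, -2.44 for Cebpd and -0.66 for Spi1, which were called higher in LPS-stimulated than in unstimulated BMDMs. They were 2.75 for Klf4, 2.65 for Maf and 2.50 for Cebpa, which were called lower in LPS-stimulated than in unstimulated BMDMs. Between LPS-tolerant and LPS-primed BMDMs none of the 6 was called, except Klf4 in the fit with the replicate block (0.77, adjusted p = 0.0118). The call of Spi1 was lost with scaling by library size alone (adjusted p = 0.0811) and held in 10 of 12 fits that left out a sample. Groups of 3 were not tested for single samples far from the others.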

How the results depend on the processing

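The 21 called differences kept their direction in all 372 alternative values and their call in 353. The count of members called in LPS-primed against unstimulated BMDMs was 5 with the replicate block in place of 3, and in LPS-tolerant against LPS-primed BMDMs 1 in place of 0. Of all tested genes, the block called 19.8% lower in the first comparison, in place of 13.1%, and 9.67% higher in the second, in place of 3.6%. The block, which treats same-numbered samples as pairs, also added Cebpe in LPS-tolerant against LPS-stimulated BMDMs and changed no other call of a member. With the study's limit on the log2FC, 3 members remained after the single dose in place of 7, and 1 in LPS-tolerant against LPS-stimulated BMDMs in place of 5. With scaling by library size alone, the median log2FC of all genes was -0.26 in LPS-primed and -0.43 in LPS-stimulated against unstimulated BMDMs. It was -0.11 in LPS-tolerant against LPS-primed BMDMs and 0.30 in the contrast of the 2 responses. In the main fit these medians were -0.02, -0.09, -0.01 and 0.06, in the same order. Of the differences that were not called, 27 of 683 alternative values changed sign. With library size alone these were Spi1 (-0.11) and Runx1 (-0.23) in LPS-primed against unstimulated, Cebpb (-0.0452) in LPS-tolerant against LPS-primed and Runx1 (0.0089) for carboplatin in LPS-tolerant BMDMs. With limma-voom they were Cebpb in LPS-tolerant against LPS-primed (-0.0028) and for carboplatin in LPS-primed BMDMs (-0.0428). With the replicate block in edgeR, Cebpb for carboplatin in LPS-primed BMDMs also changed sign (-0.0209). Leaving out 1 sample gave ranges across 0 for Cebpe (-1.11 to 0.0139) and Runx1 (-0.14 to 0.15) in LPS-primed against unstimulated BMDMs, and for Maf (-0.0328 to 0.56) and Cebpb (-0.34 to 0.29) in LPS-tolerant against LPS-primed BMDMs. For carboplatin in LPS-primed BMDMs it did so for Spi1 (-0.0498 to 0.11), Cebpb (-0.30 to 0.30) and Cebpd (-0.29 to 0.0097), and in LPS-tolerant BMDMs for Spi1 (-0.0366 to 0.12), Cebpb (-0.30 to 0.43) and Klf2 (-0.46 to 0.036). The cause of these changes was not tested. With 3 samples per group, the depth limits Cebpe most, with 1 to 44 read pairs per sample.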
